A study of Mus musculus with 9 samples.

Results

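Trimethylation of lysine 4 on histone H3 (H3K4me3) was mapped in 3 stages of the eosinophil lineage, and the intervals described are those that lay outside promoters and were present at all 3 stages. They are the intervals of the granulocyte-macrophage progenitor (GMP) list that the authors placed upstream of a gene, in an exon, in an intron or between genes, and that overlapped an interval of the eosinophil progenitor (EoP) list and one of the mature eosinophil (Eos) list by at least 1 base. Of 30645 GMP intervals, 10532 were outside promoters, and 2738 of these met the rule. The intervals were thus chosen by the measured peak calls of all 3 libraries, which also give each interval its height, so heights, lengths and shares are given as descriptions with no test.

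GMP were lineage-negative, CD34-positive, CD16/32-positive marrow cells with high c-kit, EoP were lineage-negative, CD34-positive cells with low c-kit and CD125, the interleukin 5 receptor, and Eos were marrow cells carrying CCR3 and Siglec-F. All were sorted from bone marrow pooled over Balb/c mice that had received no treatment. Each stage gave 1 H3K4me3 library, from 1 sort, and 2 RNA libraries, from separate sorts. No label states that separate sorts drew on separate animals. The p-values therefore cover only the spread between these RNA libraries, which may be technical.

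H3K4me3 is laid down by SET1 and MLL methyltransferases, and its sharp peaks sit over the first nucleosomes of genes that are transcribed or poised. Away from annotated starts, the mark is known from unannotated or alternative starts, from strongly active enhancers and from the surroundings of genes read by RNA polymerase III. GMP give rise to neutrophils, monocytes and, through EoP, eosinophils.

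Sequence could be shown only as the RefSeq start windows that shared intervals reached, in part or in full. Such a window runs from 250 bases before to 50 bases after a gene's start. It is from RefSeq, build GRCm38.p6, whose coordinates the build mm10 shares, and the sequence is of C57BL/6J, not of Balb/c. Of the 2655 shared intervals on the chromosomes used in this step, 344 (12.96%) overlapped such a window, against 295 of 7558 (3.90%) of the remaining non-promoter GMP intervals. In 148 cases the window belonged to the gene the authors had assigned, from a start other than the one they measured to, and in 196 to another gene, of which 120 were long non-coding RNAs and 76 protein-coding. In all, 559 shared intervals (21.1%) lay within 1000 bases of a RefSeq start, against 736 (9.74%) of the remaining non-promoter intervals.

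The windows printed here are that of a named interval, Zfp72, and those met by the 2 intervals of highest GMP fold enrichment on a further start of the assigned gene and the 2 highest on a long non-coding RNA start. This choice was made after their values were seen. They run 5′ to 3′ on the gene's strand with CG dinucleotides in capitals. Of the 300 bases of each window, the interval covers 120 for Zfp72, 78 for Mapkap1, 126 for Galk2 and all for Gm31676 and Gm35089. CpG counts are of the whole window. Zfp72, a zinc finger gene (chr13:74390780-74391079, minus strand), is reached by the upstream interval with the third highest fold enrichment in GMP and holds 4 CpG. Mapkap1, which encodes a subunit of mTOR complex 2 (chr2:34406601-34406900, plus strand), and Galk2, a sugar kinase gene (chr2:125865973-125866272, plus strand), are reached at a further start by intervals listed as intergenic and intronic, and hold 22 and 7. Gm31676 (chr12:21543477-21543776, minus strand) and Gm35089 (chr5:109866571-109866870, minus strand) are long non-coding RNAs whose windows hold 11 and 12 CpG under intervals annotated to 2410018L13Rik and Gm15446.
Zfp72: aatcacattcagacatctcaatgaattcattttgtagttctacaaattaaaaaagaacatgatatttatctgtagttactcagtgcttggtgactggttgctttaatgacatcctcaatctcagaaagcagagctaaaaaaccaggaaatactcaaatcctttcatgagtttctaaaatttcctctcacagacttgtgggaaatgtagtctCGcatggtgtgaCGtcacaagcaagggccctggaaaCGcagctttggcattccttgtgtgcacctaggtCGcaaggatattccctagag
Mapkap1: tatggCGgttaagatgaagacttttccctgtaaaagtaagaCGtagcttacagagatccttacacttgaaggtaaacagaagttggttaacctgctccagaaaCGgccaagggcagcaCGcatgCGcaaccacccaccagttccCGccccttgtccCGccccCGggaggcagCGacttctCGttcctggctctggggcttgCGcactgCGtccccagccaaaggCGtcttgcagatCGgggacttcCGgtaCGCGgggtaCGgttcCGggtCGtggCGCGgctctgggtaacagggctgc
Galk2: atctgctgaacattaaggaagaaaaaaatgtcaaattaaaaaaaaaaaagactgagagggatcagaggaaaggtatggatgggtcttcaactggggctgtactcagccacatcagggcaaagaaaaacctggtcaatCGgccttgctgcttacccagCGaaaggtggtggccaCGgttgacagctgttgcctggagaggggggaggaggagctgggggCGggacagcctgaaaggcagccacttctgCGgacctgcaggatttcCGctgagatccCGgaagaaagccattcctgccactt
Gm31676: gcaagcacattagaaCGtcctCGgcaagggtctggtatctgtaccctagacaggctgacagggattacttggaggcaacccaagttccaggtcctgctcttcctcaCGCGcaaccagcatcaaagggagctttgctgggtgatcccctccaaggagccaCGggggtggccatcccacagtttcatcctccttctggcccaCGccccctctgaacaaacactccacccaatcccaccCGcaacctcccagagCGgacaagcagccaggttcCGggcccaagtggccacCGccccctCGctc
Gm35089: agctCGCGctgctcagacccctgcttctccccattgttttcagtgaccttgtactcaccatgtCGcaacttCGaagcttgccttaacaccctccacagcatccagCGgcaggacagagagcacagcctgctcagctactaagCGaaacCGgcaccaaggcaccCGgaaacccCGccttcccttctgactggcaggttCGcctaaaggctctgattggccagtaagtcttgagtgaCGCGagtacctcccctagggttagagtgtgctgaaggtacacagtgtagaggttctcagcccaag

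Mapkap1 has the most CpG of these windows and Zfp72 the fewest. Over the 322 windows met by shared intervals the median was 18 CpG, against 12 in the 245 windows met by remaining non-promoter intervals, 23 in 7717 windows met by shared promoter intervals and 7 over all 32851 windows. The GC box (GGGCGG or its reverse complement CCGCCC) was in 58.4% of the windows under shared non-promoter intervals, 51.0% of those under remaining non-promoter intervals, 70.5% of those under shared promoter intervals and 35.7% of all windows. The CCAAT box (CCAAT or ATTGG) was in 36.3%, 32.7%, 37.7% and 37.4% of the same 4 groups. A match is a description of the letters in the whole window only, of which an interval may cover a part.

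The region classes were shared to different extents. All 3 lists held 715 of 2199 upstream intervals (32.5%), 376 of 1215 exonic (30.9%), 677 of 3435 intronic (19.7%) and 970 of 3683 intergenic intervals (26.3%). Promoter intervals, within 1000 bases of a start, were shared in 13080 of 20109 cases (65.05%). Of the non-promoter GMP intervals outside the shared set, 5560 overlapped neither other list, 622 overlapped the EoP list alone and 1612 the Eos list alone. The lists differ in length and make-up: 34.4% of GMP intervals, 22.9% of 19816 EoP intervals and 53.7% of 33847 Eos intervals were outside promoters.

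**Figure D1:**
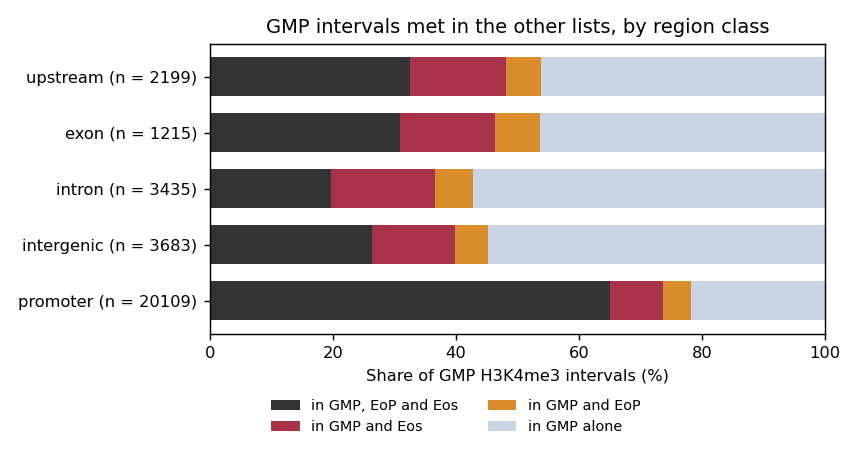
Share of GMP H3K4me3 intervals of each region class (percent, with the number of GMP intervals) that overlapped intervals of both other lists, of 1 of them, or of neither. The black part, in all 3 lists, is 32.5% for upstream, 19.7% for intronic and 65.05% for promoter intervals.

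The class of a shared interval was nearly always the same at each stage. The overlapping EoP interval had the same class for 2666 of the 2738 and the Eos interval for 2640, while 40 and 67 met an interval that the other list called a promoter. Intronic intervals gave most of these, 22 in EoP and 46 in Eos. For these counts, each GMP interval was matched to the EoP and the Eos interval that overlapped it most. Further overlapping intervals were not counted. The 2738 GMP intervals were matched to 2632 EoP and 2590 Eos intervals, so some neighbours were merged there. The matched intervals had a stretch common to all 3 lists for all but 100 of the 2738. These stretches covered 684370 of 1306122 GMP bases.

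Shared intervals were longer and higher than the remaining non-promoter intervals, and shorter and lower than shared promoter intervals. Their median length in GMP was 445 bases, against 130 for the remaining non-promoter intervals and 700 for shared promoter intervals. The median pileup, which is the authors' read depth at the summit, was 16, against 5 and 38. Their median fold enrichment over the authors' local background was 7.52, against 4.28 and 9.27, and the median −log10 q was 11.3, against 3.57 and 24.7. The matched EoP intervals had a median pileup of 11 and those of Eos of 10. In Eos the remaining non-promoter intervals had a median pileup of 2 and a median −log10 q of 0.775. At a −log10 q of at least 8.15, the GMP median, in every list, 576 shared intervals remained, 228 of them intergenic.

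**Figure D2:**
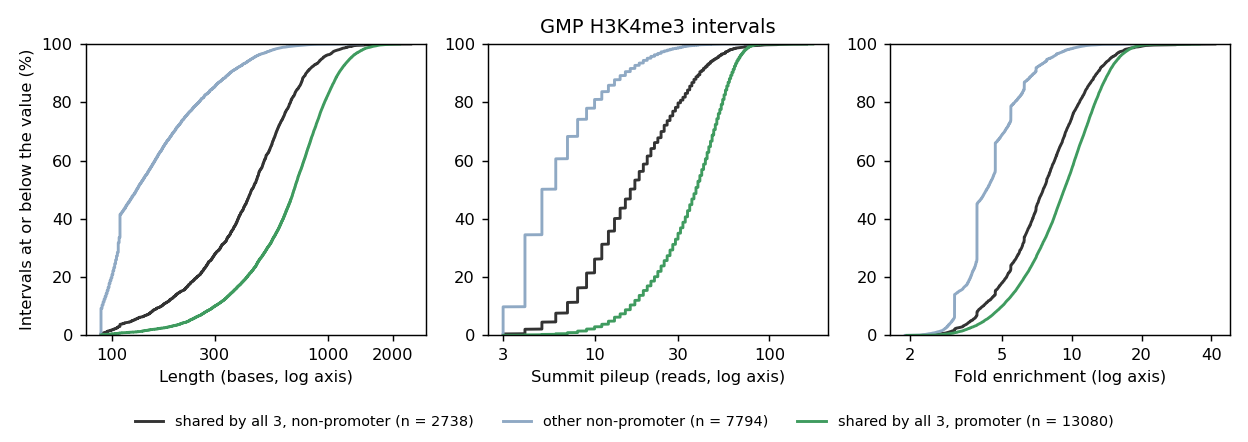
Cumulative share (percent) of GMP intervals at or below a given length in bases, summit pileup in reads and fold enrichment, each on a log axis, for shared non-promoter, remaining non-promoter and shared promoter intervals. The shared non-promoter curve lies between the others in each panel, with medians of 445 bases, 16 reads and 7.52-fold.

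The highest intervals were intergenic. The interval assigned to Pak3, a kinase gene, at chrX:143482974-143483154 had fold enrichments of 41.5 in GMP, 34.2 in EoP and 31.9 in Eos. It had the highest fold enrichment of any interval in the GMP and EoP lists and lay 35438 bases from the Pak3 start. The interval assigned to 1700012B15Rik followed, at 37.9, 31.2 and 26.3-fold in the same order of stages. The interval assigned to Cdon, a cell surface receptor gene, at chr9:35305172-35305557 had the highest pileup, 163 in GMP, 245 in EoP and 193 in Eos. Its nearest start was that of 4933422A05Rik. In introns, Cdk5rap2, a centrosome protein gene, led with 31.8-fold in GMP, 23.7 in EoP and 19.4 in Eos. Next came Gm21119, whose interval had 28.2-fold enrichment in GMP, 17.0 in EoP and 16.9 in Eos. Chl1, a neural adhesion molecule gene, had 21.7, 22.9 and 24.4-fold at chr6:103649015-103649289. Among exons Actn1, for an alpha-actinin, had 18.6-fold in GMP, 5.89 in EoP and 6.57 in Eos, ahead of Lars2, a mitochondrial leucyl-tRNA synthetase gene (16.9-fold in GMP), and Vwa1 (16.6-fold in GMP). Upstream of genes, the interval of Fcgr3 described with the tRNA genes led, followed by that of Arfgef2 and Trp53rk at 20.1-fold in GMP, 12.9 in EoP and 14.3 in Eos. These folds were scaled within each list and their order between stages was not tested. Among the intergenic and intronic ones, the intervals of Pak3, 1700012B15Rik, Cdon, Cdk5rap2 and Chl1 were 181 to 386 bases long with 1 summit each. Their pileups were higher in EoP than in GMP, while the median over all shared intervals was 16 in GMP and 11 in EoP. The Gm21119 interval, of 765 bases, went the other way (92 and 49). Whether these intervals carry the mark was not tested.

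The longest interval was intronic in Erg, a transcription factor gene of blood stem cells. It spanned 2430 bases at chr16:95456683-95459112, 71253 bases from the listed start, with 4.08-fold enrichment, and its EoP and Eos counterparts were 555 and 423 bases long. Next were intervals assigned to Aff1, a subunit gene of an elongation complex (1792 bases), and to the microRNA gene Mir1941 (1647 bases). The Mir1941 interval had no stretch common to both the EoP and the Eos interval that overlapped it most. The intervals farthest from any start were 1 assigned to Tenm4, 1363058 bases away, and 2 assigned to B230118H07Rik on chr2, for which the nearest start was that of Lrrc4c, 1198545 and 1196102 bases away.

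Distances to a start spanned several orders of magnitude. The median distance to the start the authors used was 21074.5 bases, against 26650 for the remaining non-promoter intervals. It was between 1 and 2 kb for 286 shared intervals and over 100 kb for 461. The assigned gene had the nearest start for 1906 of the 2738 (69.6%), but only for 51.0% of the intergenic ones. The assigned gene is used here as the authors' label of a location. Another shared interval lay within 1 kb of 769 (28.1%), and a promoter interval within 5 kb of 408 (14.9%). At the rule's edges, an interval assigned to Il13 and Il4 overlapped its Eos counterpart by 1 base and one of Rftn1 missed by 1 base. An interval of Axin2 lay 1000 bases from its start and was kept, and one of Gpr108 and Trip10 at 999 bases was a promoter interval.

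The 2738 intervals carried 1958 different annotation entries, of which 161 had 3 or more intervals and 1442 had 1. Mir101c had the most, 19 intervals of 137 to 284 bases within chr9:2999976-3036151, and Gm5458 had 10. Pde4d, a cyclic AMP phosphodiesterase gene, had 6 intronic intervals spread over 910632 bases. Maml3, a Notch coactivator gene, had 6 in introns, Utrn, for utrophin, had 4 upstream and 2 in introns, and Ptma, for prothymosin alpha, had 5 intergenic and 1 exonic. There were 6 stretches with at least 8 shared intervals within 100 kb. The pileup divided by the fold enrichment, a measure of the local background in the authors' lists, had a median of 1.86 over all shared intervals. It was 13.2 in the Gm5458 stretch on chr14 and 6.43 in the Mir101c stretch. It was 17.98 to 18.04 at the 3 B230118H07Rik intervals. Whether these high-background stretches carry the mark was not tested. Without the 6 dense stretches, 2674 shared intervals remained.

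A group of the shared intervals lay beside transfer RNA genes, which RNA polymerase III transcribes from promoter boxes inside the gene. This group was chosen after its values were seen. Of 408 nuclear tRNA genes in the RefSeq table, 117 (28.7%) had a shared non-promoter interval within 500 bases, and 36 were overlapped. Nearness to tRNA genes was not particular to the shared set. Of the same genes, 100 had 1 or more of the 7794 remaining non-promoter GMP intervals within 500 bases, and 35 a shared promoter interval. For small nuclear RNA genes it was 8 of 1004 (0.797%), for small nucleolar RNA genes 1 of 1340 (0.0746%), for microRNA genes 11 of 1228 (0.896%) and for RNA genes classed as miscellaneous 7 of 94 (7.45%). Counting intervals of any class, 213 tRNA genes had an interval within 500 bases in GMP, 165 in EoP and 158 in Eos, and 145 (35.5%) had one at all 3 stages. That last share was 26.6% for the miscellaneous RNA genes, 7.98% for microRNA, 3.96% for small nucleolar and 1.69% for small nuclear RNA genes. Of the tRNA genes near a shared interval, 54 stood 0 to 99 bases away from it without overlap.

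**Figure D3:**
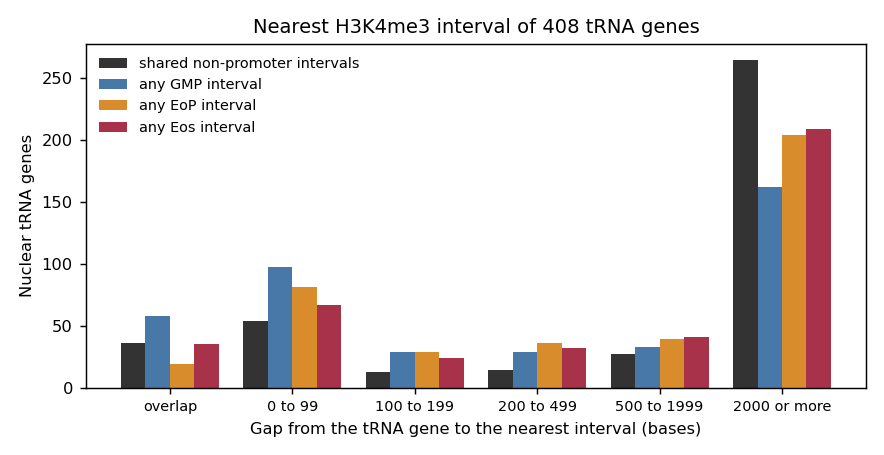
Number of nuclear tRNA genes by the gap in bases to the nearest shared non-promoter interval and to the nearest interval of any class in GMP, EoP and Eos. Apart from the class farthest away, the 0 to 99 base class holds the most tRNA genes in each list: 54 for shared intervals and 97, 81 and 67 for any GMP, EoP and Eos interval.

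The tRNA group comprised 103 shared intervals, 64 upstream, 37 intergenic, 2 intronic and 0 exonic. In GMP they had a median length of 563 bases and pileup of 35, against 440 bases and 16 for the other shared intervals. Their median fold enrichment was 7.70, against 7.505. Their pileup over fold had a median of 4.08. They were near tRNA genes of every amino acid group in the table, with the highest shares for proline (11 of 16) and phenylalanine (4 of 7) and the lowest for glutamine (1 of 16) and cysteine (2 of 56). Chromosome 13 had 28 of 105 tRNA genes near a shared interval and chromosome 6 had 0 of 53. Of the dense stretches, 3 were tRNA clusters: 7 of 8 shared intervals near Fcgr3 on chr1, 8 of 8 near Gpx5 and Trim27 on chr13, and 8 of 10 among histone genes on chr13 were near a tRNA gene.

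The Gpx5 cluster shows such a gene just beside a shared interval, at chr13:21222258-21222580. The Gm32420 start window (chr13:21222490-21222789, minus strand) contains the alanine tRNA gene n-TAagc16 at chr13:21222586-21222657 and 1 match to the B box consensus on either strand. The interval covers 91 of the window's 300 bases. The B box is the internal promoter box of tRNA genes, and capitals mark the match. The box was in 5 of the 322 windows under shared intervals (1.55%) and in 261 of all windows (0.794%).
Gm32420: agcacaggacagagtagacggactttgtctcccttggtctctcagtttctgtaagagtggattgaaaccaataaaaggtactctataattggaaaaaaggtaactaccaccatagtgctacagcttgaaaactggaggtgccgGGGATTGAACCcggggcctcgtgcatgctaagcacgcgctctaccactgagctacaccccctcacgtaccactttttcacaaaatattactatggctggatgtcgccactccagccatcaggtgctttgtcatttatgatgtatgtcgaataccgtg

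Another case is the upstream interval with the highest fold enrichment, at chr1:171064490-171064711, assigned to Fcgr3 and 5087 bases from its start. It overlapped the glycine tRNA gene n-TGtcc1 (chr1:171064699-171064770) and both mature microRNAs of Mir6546 (chr1:171064591-171064652, minus strand). Its fold enrichment was 24.7 in GMP, 11.05 in EoP and 6.64 in mature eosinophils. The mature microRNAs are shown because the interval covers them, with the seed, bases 2 to 8, in capitals.
mmu-miR-6546-5p: aGGCGCCUcugagcuugugcuugu
mmu-miR-6546-3p: gAGCGAAGcccaagcgccaga

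The RNA of the assigned genes was not used by the rule and was tested. It need not be independent of the rule. Of the assigned genes, 78.4% passed the filter on low counts, against 61.0% of all genes. The intervals named 2093 genes, 8.92% of the 23471 genes in the RNA files, and 1641 of them passed the filter on low counts, 11.5% of the 14324 tested. Their median deposited RPKM was 0.996 and 0.966 in the GMP libraries, 1.13 and 1.19 in EoP and 0.953 and 0.644 in Eos. Over all genes it was 0.343 and 0.310 in GMP, 0.136 and 0.169 in EoP and 0.166 and 0.113 in Eos. Genes with shared promoter intervals had medians of 2.24 to 4.33 RPKM. Genes with intronic intervals stood highest among the classes, at 1.52 to 2.18 RPKM, and genes with exonic intervals lowest, at 0.391 to 0.582.

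Across all genes, edgeR's quasi-likelihood test called 3812 genes (26.6%) between EoP and GMP, 5273 (36.8%) between Eos and EoP and 7810 (54.5%) between Eos and GMP at a Benjamini-Hochberg adjusted p under 0.05. For EoP against GMP, 207 of the 1641 assigned genes were higher (12.6%, background 9.49%) and 241 lower (14.7%, background 17.1%). For Eos against EoP, 435 were higher (26.5%, background 19.1%) and 243 lower (14.8%, background 17.7%). For Eos against GMP, 507 were higher (30.9%, background 22.7%) and 407 lower (24.8%, background 31.8%). Genes of the remaining non-promoter intervals, 3333 of them tested, also had more higher calls than the background. Of these genes, 24.99% rose and 14.22% fell from EoP to Eos. From GMP to EoP, 11.76% rose and 21.24% fell, and from GMP to Eos 27.6% rose and 30.99% fell. The difference between these genes and the assigned genes was not tested. The 3 comparisons share libraries. The RNA libraries held 5226653 to 12088134 counts. The assigned genes' median log2 fold changes were −0.05, 0.21 and −0.05, against −0.07, 0.02 and −0.39 over all genes tested.

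The balance of higher and lower calls differed between fits. Higher calls were 46.2% of the assigned genes' calls for EoP against GMP, but 33.9% with upper quartile factors and 20.4% with library size alone. At TMM scaling they were 56.3% when at least 50 counts in 2 libraries were asked for, 70.6% without GMP replicate 1 and 72.0% without GMP replicate 2. They were 88.0% with limma on log2(RPKM + 0.5), a fit that differs in test, unit and genes tested (9938) as well as in scaling. For Eos against EoP they were 64.2%, and 40.1% with that limma fit. For Eos against GMP they were 55.5%, and 33.7% with library size alone. The balance over all genes moved likewise, also without either GMP replicate. Between GMP and EoP, higher calls were 35.65% of all genes' calls, 25.23% with upper quartile factors and 14.27% with library size alone. With that limma fit they were 87.03%. At 50 counts or more they were 58.41%, above the 56.3% of the assigned genes. Between EoP and Eos the share over all genes was 51.83%, and 25.04% with that limma fit. Between GMP and Eos it was 41.65%, and 22.96% with library size alone. Relative to the TMM scaling, the median of all genes moved by −0.47 and −0.58 log2 units with library size alone (EoP and Eos against GMP) and by 0.45 and −0.55 with limma on RPKM (EoP against GMP and Eos against EoP). The share of assigned genes called higher exceeded that of all genes in all 16 fits run, those with a library left out included, by 1.71 to 4.34 percentage points for EoP against GMP and 5.65 to 9.30 for Eos against EoP.

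Genes with intronic intervals had the share of higher calls farthest above the background of the 4 classes, in all 3 comparisons. Of 478 tested, 185 (38.7%) were higher in Eos than in EoP and 52 (10.9%) lower, and 204 (42.7%) were higher in Eos than in GMP and 96 (20.1%) lower. Genes with upstream intervals had 23.4% higher and 14.1% lower in Eos against EoP, genes with exonic intervals 25.3% and 13.6%, and genes with intergenic intervals 21.9% and 19.3%. In all 16 fits run, the intron genes' share of higher calls in Eos against EoP exceeded that of all genes, by 15.8 to 22.6 percentage points. The number called higher was 116 at least, with limma on log2(RPKM + 0.1), and 130 without EoP replicate 1. The difference between classes was not tested.

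The counts of calls moved with single libraries, over all genes as well as over the assigned genes given here. They are thus not read as a trait of the assigned genes. In each such fit the assigned genes' share of higher calls stayed above that of all genes. For EoP against GMP, leaving out GMP replicate 1 gave 77 higher and 32 lower assigned genes, and leaving out GMP replicate 2 gave 95 and 37. Without EoP replicate 1 the counts were 113 and 70. Lower calls fell to 79 without EoP replicate 2, and higher calls numbered 321 and 317 without Eos replicate 1 and 2. For Eos against EoP, 280 were higher and 135 lower without EoP replicate 1, and 154 lower without EoP replicate 2. In Eos against GMP, leaving out GMP replicate 1 gave 198 lower calls and leaving out GMP replicate 2 gave 171.

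**Figure D4:**
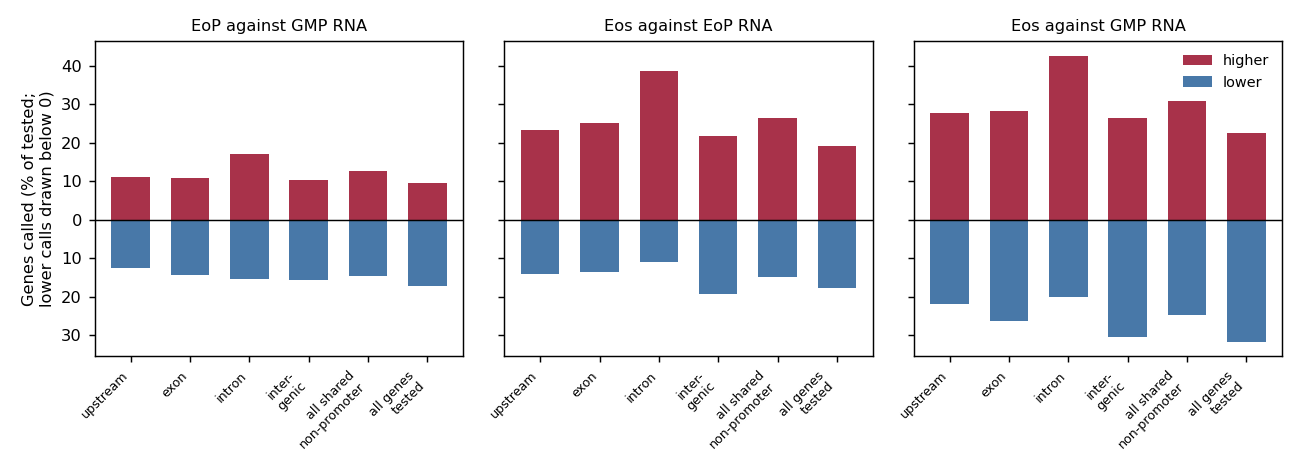
Percent of tested genes called higher (above 0) or lower (below 0) in 3 RNA comparisons, by the class of the shared interval assigned to them, with all genes tested on the right. Intron genes reach 38.7% higher in Eos against EoP, where all genes reach 19.1%.

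Eosinophil surface receptors were among the assigned genes, with 8 of 27 on the list, against 8.92% of all genes. The list names receptors of eosinophils, and the proteins of Il5ra and Siglec5, CD125 and Siglec-F, stand in the sort gates. Rises from GMP in these genes were thus largely set by the choice of list. All 8 were higher in Eos than in GMP, against a background of 22.7%, and 7 were higher in EoP than in GMP, against 9.49%, and each of the 8 Eos calls held in every alternative run. Of the 7 receptor calls for EoP against GMP, those of Csf2rb and Il1rl1 were lost without GMP replicate 1 and also without GMP replicate 2 (edgeR adjusted p of 0.0599 to 0.128). Il5ra, for the interleukin 5 receptor alpha chain that defines the EoP gate, had an intronic interval at chr6:106725813-106726052 with a fold enrichment of 6.18 in GMP, 6.68 in EoP and 7.25 in Eos. Its RNA was 2.18 and 1.79 CPM in GMP, 436 and 399 in EoP and 619 and 1179 in Eos. Its listing in GMP was set by the rule, as for every shared interval. The RNA was lowest in GMP and did not overlap the other stages there. Adora3, an adenosine receptor gene, had an intronic interval of 113 bases and 3.03 and 2.83 CPM in GMP, 118 and 102 in EoP and 324 and 465 in Eos. Its log2 fold change was 7.07 (SE 0.32) for Eos against GMP (edgeR adjusted p = 1.48e-06).

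Ccr1, a chemokine receptor gene, had 2 intergenic intervals and 1 intronic, and 8.23 and 5.07 CPM in GMP, 19.2 and 38.3 in EoP and 145 and 145 in Eos. The stages did not overlap. Siglec5, the symbol the files use for the gene of Siglec-F, had an exonic interval 1097 bases from its start, just past the promoter limit, with 5.16-fold enrichment in GMP, 5.04 in EoP and 9.58 in Eos. Its log2 fold change for Eos against GMP was 4.40 (SE 0.27, edgeR adjusted p = 3.62e-06). Fcgr3, for the Fc receptor CD16, had 3 intervals, including the one over Mir6546 given above, and 27.0 and 34.7 CPM in GMP, 225 and 190 in EoP and 412 and 593 in Eos. Each of the 3 lay within 500 bases of a tRNA gene, and the start of Fcgr4 was nearer to the one at chr1:171038105-171038609. Csf2ra, Csf2rb and Il1rl1, for the GM-CSF receptor chains and the interleukin 33 receptor, complete the group. Csf2ra had an intergenic interval of 32.5-fold enrichment in GMP, for which the start of Gm7102 was nearer, and was the 1 receptor not called for EoP against GMP (log2 fold change −0.03, edgeR adjusted p = 0.947).

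Neutrophil markers moved with the Eos samples: S100a8, S100a9, Retnlg, Ltf and Camp summed to 1785 and 514 CPM in GMP, 370 and 114 in EoP and 35426 and 42669 in Eos. Their part in the Eos results was not tested. None of the 19 neutrophil, 11 GMP primary granule or 15 erythroid and megakaryocyte genes on the lists was assigned a shared interval.

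Of 10 granule protein genes 3 were assigned shared intervals, against 8.92% of all genes. All 3 were higher in EoP than in GMP (background 9.49%) and lower in Eos than in EoP (background 17.7%). These are genes of eosinophil granules, so their rise from GMP was largely set by the choice of list. Prg2, for major basic protein, had 2 exonic intervals and Epx, for eosinophil peroxidase, had 1, with fold enrichments of 3.37 to 4.57 in GMP. Prg2 had 983 and 235 CPM in GMP, 176395 and 137064 in EoP and 4426 and 3321 in Eos. Epx had 141 and 45.1 CPM in GMP, 26969 and 23218 in EoP and 436 and 214 in Eos. The stages did not overlap for Prg2 or Epx, with EoP the highest. The log2 fold change of Prg2 was 8.01 (SE 0.94) for EoP against GMP and −5.34 (SE 0.83) for Eos against EoP (edgeR adjusted p = 0.000523 and 0.00118). Ear10, an eosinophil ribonuclease gene whose reads may be shared with its near-identical relatives, had an upstream interval of 12.8-fold enrichment. It had 447 counts in EoP against 1 in GMP, a ratio of 332 with a 95% counting interval of 59.3 to 13150, which covers counting error only.

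Stem and progenitor genes made the list with the largest share assigned, 12 of 24, against 8.92% of all genes. Of the 12, 9 genes were lower and 1 higher in Eos than in GMP, against a background of 31.8% lower and 22.7% higher. The list names genes of progenitors, so falls from GMP to Eos were largely set by its choice. In EoP against GMP 3 were lower and 1 higher, against 17.1% and 9.49%. The 3 lower EoP calls, of Cd34, Sox4 and Hlf, were each lost without GMP replicate 1 (edgeR adjusted p of 0.168, 0.0703 and 0.0998) and without GMP replicate 2 (0.167, 0.0929 and 0.154). They were lost without EoP replicate 2 as well (0.129, 0.0845 and 0.0510). The median log2 fold change for Eos against GMP was −1.95, against −0.39 over all genes. Cd34, the sialomucin of the GMP and EoP gates, had an intergenic interval 58607 bases away and 130 and 123 CPM in GMP, 53.0 and 61.8 in EoP and 18.4 and 7.72 in Eos. Its log2 fold change for Eos against GMP was −3.27 (SE 0.36, edgeR adjusted p = 0.000106). Myb, a transcription factor gene of progenitor growth, had an intronic interval of 1080 bases, 1495 bases from its start, and a pileup over fold of 15.3. Its RNA was 1046 and 1023 CPM in GMP, 1006 and 1027 in EoP and 480 and 172 in Eos, and the Eos call was lost without GMP replicate 2 (edgeR adjusted p = 0.0519).

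Sox4, a transcription factor gene, had an upstream interval of 1173 bases and a log2 fold change of −3.32 for Eos against GMP (SE 0.58, edgeR adjusted p = 0.00142). Cdk6, a cell cycle kinase gene, had 2 upstream intervals and Myc, a growth regulator gene, an exonic one at 2.25-fold, the lowest fold enrichment of all shared intervals. Cdk6 had 533 and 593 CPM in GMP, 284 and 371 in EoP and 244 and 105 in Eos. Ikzf2, which encodes the zinc finger factor Helios, went the other way, with 71.5 and 66.3 CPM in GMP, 295 and 324 in EoP and 541 and 826 in Eos (log2 fold change for Eos against GMP 3.31, SE 0.28, edgeR adjusted p = 1.92e-05). The Eos against GMP call of Erg was lost in 6 of 15 alternatives, and those of Hoxa5 and Hoxa7 in 10 and 3 of the 12 in which they were tested.

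**Figure D5:**
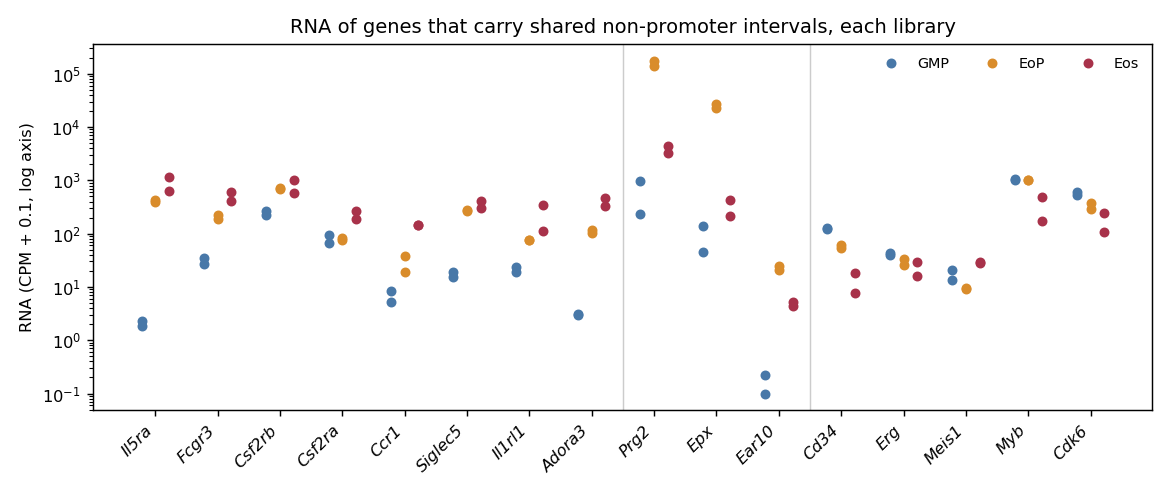
RNA level (CPM + 0.1, log axis) in each library of GMP, EoP and Eos for genes with shared non-promoter intervals: eosinophil surface receptors on the left, granule genes in the middle and progenitor genes on the right. Il5ra lies near 2 CPM in GMP and at 399 CPM or above in EoP and Eos, and Cd34 is highest in GMP and lowest in Eos.

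Transcription factor genes of the eosinophil list were assigned in 16 of 36 cases, against 8.92% of all genes. They moved in both directions, 5 higher and 7 lower in Eos against GMP, where 22.7% and 31.8% of all genes were. Of the 7 lower calls, 4 were lost without GMP replicate 2, those of Cebpa, Myb, Tcf4 and Erg (edgeR adjusted p of 0.0555, 0.0519, 0.0658 and 0.165). Those of Tcf4 and Erg were lost without GMP replicate 1 too (0.213 and 0.163), and without Eos replicate 2 (0.104 and 0.145). Gata2, which acts in progenitors and mast cells, had an upstream interval 8792 bases from its start and 78.4 and 113 CPM in GMP, 46.3 and 147 in EoP and 19.3 and 7.83 in Eos. Its log2 fold change for Eos against EoP was −2.82 (SE 0.55, edgeR adjusted p = 0.00362). Among mast cell and basophil markers, Cpa3 had 207 and 256 CPM in GMP, 322 and 740 in EoP and 27.7 and 10.9 in Eos. Mcpt8 had 220 and 196 CPM in GMP, 141 and 806 in EoP and 20.9 and 5.96 in Eos, and Prss34 had 497 and 437, 282 and 1782, and 21.5 and 11.7 at the same stages. Their part in the Gata2 result was not tested. Satb1, a chromatin organiser gene with an intronic interval, had 75.4 and 75.7 CPM in GMP, 72.3 and 87.8 in EoP and 314 and 513 in Eos. Trib1, a pseudokinase gene, had 12.5 and 68.8 CPM in GMP, 229 and 64.97 in EoP and 208 and 318 in Eos, and a call for Eos against GMP (log2 fold change 2.70, SE 0.73, edgeR adjusted p = 0.0120) that was lost without GMP replicate 1 (adjusted p = 0.0619). Nfia, a nuclear factor gene, had 4 intronic intervals between 169496 and 190862 bases from its start.

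Chromatin regulators were assigned in 11 of 34 cases, against 8.92% of all genes. Of these, 4 were higher and 1, Tet1, lower in Eos against GMP, where 22.7% and 31.8% of all genes were. The Tet1 call was lost in 9 of 15 alternatives, and that of Setd1b without GMP replicate 1 (edgeR adjusted p = 0.104) and with library size alone (0.25). Ep300, a histone acetyltransferase gene, had 5 intergenic intervals, all nearest to the start of Rbx1, and 276 and 294 CPM in GMP, 339 and 386 in EoP and 765 and 1229 in Eos. Kdm5b, which encodes a demethylase of H3K4, had 3 intervals and a log2 fold change of 1.42 (SE 0.22) for Eos against GMP (edgeR adjusted p = 0.000708). Setd1b, which encodes a methyltransferase of H3K4, had an exonic interval 1006 bases from its start and a log2 fold change of 1.25 (SE 0.23) for Eos against EoP (adjusted p = 0.00304).

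The other lists gave few members, and 8.92% of all genes were assigned a shared interval. Among the 17 genes of monocytes, macrophages and dendritic cells, 3 were assigned, Ly6c2, H2-Ab1 and Mrc1. Of these, 3 were higher in Eos than in EoP (background 19.1%) and 1 was lower in EoP than in GMP (background 17.1%). The H2-Ab1 call was lost in 7 of 15 alternatives, with adjusted p up to 0.417 without Eos replicate 1. Of 13 mast cell and basophil genes 2 were assigned, Gata2 and Il4. Il4, a type 2 cytokine gene, shares its entry with Il13 and had 3 short upstream intervals of 94 to 124 bases that met a single Eos interval of 8.48-fold enrichment. It had 1.33 and 1.19 CPM in GMP, 23.2 and 12.9 in EoP and 67.0 and 93.3 in Eos, with no overlap between stages. Of 17 lymphoid genes 4 were assigned, and 1 of these, Cd3d, was called higher in Eos than in EoP, where 19.1% of all genes were. Its log2 fold change was 3.65 (SE 0.61, edgeR adjusted p = 0.00164). Klrb1c, a receptor gene of natural killer cells, had 6 intervals but passed no comparison. Of 27 signalling and cytokine genes 6 were assigned, and the calls of Btg2 and Dusp6 were lost in 9 and 5 of 15 alternatives.

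The largest changes among the assigned genes came from the lists and from outside them. Among called genes with at least 20 CPM on average in the higher group and no overlap between groups, the largest rises in EoP against GMP were Ear10, Epx, Prg2, Il5ra and Ldhc, and in Eos against EoP they were Tmem229a, Ankrd33b, Gcnt2, Slfn2 and Sorl1. Ldhc, a lactate dehydrogenase gene, had 3 intronic intervals and 2.18 and 1.94 CPM in GMP, 206 and 143 in EoP and 52.4 and 83.8 in Eos. Slfn2, a schlafen family gene, had 2 intronic intervals 1458 and 1895 bases from its start and 8.84 and 4.92 CPM in GMP, 8.14 and 4.97 in EoP and 268 and 428 in Eos. Sorl1, a sorting receptor gene, had an intergenic interval 172885 bases from its start and a log2 fold change of 5.10 (SE 0.38) for Eos against EoP (edgeR adjusted p = 2.54e-05). Tmem229a, a membrane protein gene, had 7104 counts in Eos and 3 in EoP, a ratio of 2577 with a 95% counting interval of 881.5 to 12500, but the start of Hyal5 was nearer to its interval. Slc7a11, a cystine transporter gene with an exonic interval, had 1.09 and 2.09 CPM in GMP, 61.0 and 59.6 in EoP and 395 and 486 in Eos. Mkx, a homeobox gene with an intronic interval, was below 20 CPM in EoP and had 3775 counts in Eos against 0 in GMP and was at least 1018-fold higher, taking 3 counts over the GMP group as the floor.

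By the same limits, the largest falls in EoP against GMP were Nav2, Ly6c2, Soat1, Mgst2 and Ldlrad3, and all of these but Ldlrad3 were higher in Eos than in EoP. Among GMP primary granule markers, Mpo had 29890 and 28330 CPM in GMP, 1922 and 2376 in EoP and 10530 and 3780 in Eos. Elane had 6487 and 5685, 151 and 135, and 2167 and 587 at the same stages. Ctsg overlapped between EoP (183 and 320) and Eos (1024 and 315). The part of such RNA in these results was not tested. Soat1, a cholesterol acyltransferase gene, had an intergenic interval of 14.3-fold enrichment in GMP, 5.08 in EoP and 9.29 in Eos. Its RNA was 184 and 153 CPM in GMP, 8.73 and 9.94 in EoP and 67.4 and 50.9 in Eos, with no overlap between stages. Ly6c2, a monocyte marker gene, had 2 intergenic intervals 24912 and 25400 bases away. In that order, their fold enrichment was 18.02 and 7.49 in GMP and 15.2 and 7.60 in Eos. Both met the same EoP interval, of 16.5-fold enrichment. The pileup was 64 and 26 in GMP, 144 in EoP and 41 and 20 in Eos. Whether these intervals carry the mark was not tested. The RNA of Ly6c2 was lowest in EoP, at 13.2 and 14.0 CPM. Ly6c2 had 411 and 285 CPM in GMP and 117 and 64.9 in Eos. Against EoP, Eos had lower levels of P2rx3, an ATP-gated channel gene, and of Mns1 and Diras2. P2rx3 had 7.02 and 6.26 CPM in GMP, 183 and 332 in EoP and 17.9 and 17.1 in Eos, and the start of Tnks1bp1 was nearer to its interval. By these limits, which leave out Sox4, the largest falls in Eos against GMP were Cd34 and Maoa, for monoamine oxidase A, at −2.96 (SE 0.41, edgeR adjusted p = 0.000372), and Gata2, Arhgap32 and Cep97.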

How the data were processed

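H3K4me3 lists came from 1 library per stage and RNA from 2 libraries per stage. The build mm10 and the tools STAR 2.4.0c and Bowtie 1.0.0 are named in the submitters' processing notes, without roles; the sources used here name no peak caller or control, and neither is assumed. Per the file headers, the deposited lists hold for each summit a pileup signal, a fold enrichment ratio over local background, −log10 p and q, a region class and a gene. Per the file headers, the deposited RNA files hold estimated counts per transcript, which the authors had rounded to whole numbers, and RPKM. The depth of the ChIP libraries is unknown. RefSeq windows on chromosome 18 were not used here.

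Summits were merged into unique intervals, and entries naming several genes were split. Counts were summed per gene symbol and tested with edgeR 4.0.16 (R 4.3.3; TMM, filterByExpr, quasi-likelihood test, 6 libraries, 3 residual degrees of freedom, Benjamini-Hochberg adjustment over 14324 genes). CPM are TMM-scaled. The fit was tested on simulated data. Alternatives used DESeq2 1.42.0 and limma 3.58.1 on log2(RPKM + 0.5) or (RPKM + 0.1), other scalings and filters, and single libraries left out. Intervals and figures used Python 3.11.15, pandas 2.3.3, numpy 2.4.6 and matplotlib 3.10.9. The intervals and gene lists were chosen with earlier results of these data known.

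Candidates for naming, of which the text gives part, were the 3 intervals of each class with the highest GMP fold enrichment, the 3 longest, the 3 farthest from a start, up to 8 genes with the most intervals, those at the rule's edges, and per comparison the 5 largest called rises and falls (at least 20 CPM, groups not overlapping). Up to 4 called genes per list were also candidates; other named genes were chosen after their values were seen.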

Additional observations from a re-analysis of the deposited data

How the results depend on the processing

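The number of shared intervals was 1370 when the overlap had to cover 50% of both intervals and 576 at the stricter q. Under the other 9 definitions tried it was 2151 to 2801; 2 of these, leaving out dense stretches or RefSeq windows, were chosen after seeing the data. For EoP against GMP, higher calls numbered 106 with library size alone, 314 with limma on log2(RPKM + 0.5) and 77 to 321 with 1 library left out. Lower calls numbered 413 with library size alone, 108 at 50 counts or more, 43 and 36 with limma (pseudocounts 0.5 and 0.1) and 32 to 336 with 1 library left out. For Eos against EoP, higher calls numbered 260 and 250 with limma and 280 to 477 with 1 library left out, and lower calls 388 and 376 with limma and 135 to 310 with 1 library left out. For Eos against GMP, higher calls numbered 327 with library size alone and 377 to 551 with 1 library left out. Lower calls numbered 643 with library size alone, 258 with limma at 0.1 and 171 to 436 with 1 library left out. These counts are of assigned genes, and those over all genes moved as well. For EoP against GMP, 602 of all genes were higher and 3617 lower with library size alone. With limma on log2(RPKM + 0.5) they were 2363 and 352, and 1440 and 4311 for Eos against EoP. For Eos against GMP, 2019 were higher and 6776 lower with library size alone. The cause of these shifts was not tested.

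Same-numbered libraries did not deviate together (correlations of −0.10, 0.02 and −0.08). The labels give replicate numbers only, so whether these pair the samples is unknown. With the replicate block, 178 genes were higher and 170 lower in EoP against GMP, 410 and 231 in Eos against EoP, and 497 and 373 in Eos against GMP. Genes with the nearest start in place of the assigned gene, an alternative chosen after seeing the data, gave 202 and 194, 402 and 243, and 476 and 376. Of 138 calls of named and listed genes, 96 held in every alternative run, 42 were lost in at least 1 and 0 reversed. With 1 ChIP library per stage, no difference in peaks between stages can be tested.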
